A study of Homo sapiens with 8 samples.

Results

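BAG3 and 9 other genes for cochaperones of the chaperone Hsp70 are described here: BAG1, BAG2, BAG4, BAG5, HSPBP1, STUB1, ST13, STIP1 and HSPB8. They were chosen by gene symbol, and all 10 were found among the 60617 genes of the count table. All 10 also passed the filter on low counts, which left 17693 genes for testing. RNA was sequenced from MCF-10A, an established cell line of human breast epithelium that does not form tumours, kept as 2 lines labelled Empty and NeuT. Each line was left untreated or received 1 µM JG-98, an inhibitor of Hsp70, for 12 h. The 4 groups are therefore untreated Empty, treated Empty, untreated NeuT and treated NeuT, with 2 libraries each, 8 in all. The labels do not say what either line carries, whether a line is 1 clone, or whether replicates came from separate cultures. P-values therefore measure only the spread between these libraries, which may be technical. The series asked how sensitive transformed cells are to the drug, and its title names the module that Hsp70 forms with Bag3.

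Hsp70 holds unfolded proteins in a cycle of ATP binding and hydrolysis, and cochaperones decide what happens to the protein it holds. BAG proteins and HSPBP1 are nucleotide exchange factors: they make Hsp70 release ADP and, with it, the client. BAG3 also carries clients to selective autophagy together with the small heat shock protein HSPB8, and it links Hsp70 to several signalling pathways, whereas BAG1 takes clients to the proteasome. STUB1, also called CHIP, is a ubiquitin ligase that binds the tail of Hsp70 and Hsp90. STIP1, also called HOP, passes clients from Hsp70 to Hsp90, and ST13, also called HIP, slows the release of ADP. JG-98 binds Hsp70 at an allosteric site and weakens its contact with BAG3. Several of these genes, BAG3, HSPB8 and STIP1 among them, are known targets of the heat shock factor HSF1.

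Total counts ran from 37341458 in treated Empty replicate 1 to 56861971, and the next lowest library held 55050996. A count of 0 in a library allows up to 3 counts, which is 0.0528 to 0.0803 CPM (counts scaled to a common library total), for counting error only. Values below are CPM scaled by TMM, a scaling factor per library that assumes most genes keep their level. A gene is described as called where its p-value, adjusted by Benjamini-Hochberg over all tested genes, was under 0.05 in edgeR's quasi-likelihood test. The replicates of treated NeuT stood further apart than those of the other groups, with a chi-square per gene of 22.0 against 4.52 to 8.20. For the 10 genes, a call on that group that changes without either of its libraries is given both ways. All 11 markers of basal breast epithelium were at 1 CPM or more in every library. Of 8 luminal markers 7 were at that level, all but PGR.

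Promoters are shown for 4 genes on which the comparison of lines turns: HSPB8, BAG1 and STIP1, which were called lower in NeuT without and with the drug, and BAG3, which was not called. The sequences are from RefSeq, build GRCh38.p14, and span 250 bases before to 50 after a start of transcription. Promoters were matched for 7 of the 10 genes, 11 sequences in all. Capitals mark matches to a pair of heat shock element units, searched as GAANNTTC and TTCNNGAA. Each motif reads the same on both strands. The HSPB8 promoter is chr12:119178681-119178980 on the plus strand, the BAG1 promoter is chr9:33264659-33264958 on the minus strand, the STIP1 promoter is that of its downstream start, chr11:64185921-64186220 on the plus strand, and the BAG3 promoter is chr10:119651130-119651429 on the plus strand.
HSPB8: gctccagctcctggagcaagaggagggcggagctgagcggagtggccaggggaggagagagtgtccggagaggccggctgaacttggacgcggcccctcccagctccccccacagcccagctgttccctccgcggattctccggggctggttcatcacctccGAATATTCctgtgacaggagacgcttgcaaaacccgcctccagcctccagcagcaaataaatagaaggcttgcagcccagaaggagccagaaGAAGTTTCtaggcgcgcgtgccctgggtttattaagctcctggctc
BAG1: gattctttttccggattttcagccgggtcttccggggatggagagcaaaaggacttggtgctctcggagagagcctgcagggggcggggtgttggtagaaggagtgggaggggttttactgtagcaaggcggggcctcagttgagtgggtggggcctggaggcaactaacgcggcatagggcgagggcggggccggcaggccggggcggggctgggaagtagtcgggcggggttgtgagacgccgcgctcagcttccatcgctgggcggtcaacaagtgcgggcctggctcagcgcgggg
STIP1: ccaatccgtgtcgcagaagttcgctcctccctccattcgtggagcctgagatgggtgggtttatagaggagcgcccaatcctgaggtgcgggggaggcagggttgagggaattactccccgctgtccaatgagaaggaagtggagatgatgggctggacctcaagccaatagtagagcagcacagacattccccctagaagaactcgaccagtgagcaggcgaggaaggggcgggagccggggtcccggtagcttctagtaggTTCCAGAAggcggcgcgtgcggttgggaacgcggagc
BAG3: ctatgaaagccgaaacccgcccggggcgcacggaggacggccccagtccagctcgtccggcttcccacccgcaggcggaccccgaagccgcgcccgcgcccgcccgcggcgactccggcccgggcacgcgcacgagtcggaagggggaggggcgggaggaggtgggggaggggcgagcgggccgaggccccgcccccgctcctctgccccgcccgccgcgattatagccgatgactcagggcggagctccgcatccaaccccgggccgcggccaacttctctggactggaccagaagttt
HSPB8 held 2 matches to GAANNTTC, which began 88 bases before the start and at base 5 after it. STIP1 held 1 match to TTCNNGAA, at base 14 after this start, and none at its upstream start. No match was found in the windows of BAG1 and BAG3. Outside these, BAG2 held 1 match to GAANNTTC, 124 bases before its start, and the windows of BAG5 and HSPBP1 held none. Among all 35116 promoters of the same length, 6.77% held GAANNTTC, 7.74% held TTCNNGAA and 13.5% held either. The longer heat shock element of 3 alternating units, present in 0.49% of all promoters, and TGATGNAA on either strand, an element bound by ATF4 dimers and present in 3.62%, had no match in the 11 sequences. A match describes the letters only.

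BAG3 RNA was the most abundant of the 10 per kb of exon. By CPM, STIP1 lay higher in every library, at 256 to 356 CPM against 213 to 244 CPM for BAG3. The length used is that of all exons of a gene in the count table, 2.75 kb for BAG3 and 7.07 kb for BAG1, not that of a transcript. The order depends on it. On the scale of TMM-scaled CPM per kb of exon, BAG3 (ENSG00000151929, GRCh38 chromosome 10, 119651370 to 119677819) averaged 83.6 over the 8 libraries, with a range of 77.4 to 88.8. STIP1 (ENSG00000168439, chromosome 11, 64185272 to 64204543) followed at 66.3 and ST13 (ENSG00000100380, chromosome 22, 40824535 to 40856639) at 58.8. HSPBP1 (ENSG00000133265, chromosome 19, 55262223 to 55280381) averaged 46.1 and STUB1 (ENSG00000103266, chromosome 16, 680224 to 682870) 31.6. The first 5 genes in this order lay above 91.4% or more of all tested genes. BAG5 (ENSG00000166170, chromosome 14, 103556544 to 103562831) averaged 13.7, HSPB8 (ENSG00000152137, chromosome 12, 119178642 to 119221131) 13.3 and BAG1 (ENSG00000107262, chromosome 9, 33247820 to 33264720) 12.7. BAG4 (ENSG00000156735, chromosome 8, 38176533 to 38213301) averaged 7.35. BAG2 (ENSG00000112208, chromosome 6, 57172326 to 57189833) was nearly unread, at 0.0713 CPM per kb and 13 to 36 counts per library. Neighbours in this order whose ranges over the 8 libraries overlapped were STIP1 with ST13, BAG5 with HSPB8, and HSPB8 with BAG1. BAG3 also varied little, from 213 to 244 CPM over the 8 libraries, its highest library 1.15 times its lowest. That was not particular to BAG3, with 1.10 times for ST13 and 1.16 times for HSPBP1. The highest library for HSPB8 was 2.49 times the lowest.

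Not every count can be given to 1 gene. Exons of BAG2 share 42.7% of their bases with RAB23 on the other strand, and those of STUB1 share 42.5% with JMJD8 on the other strand. Whether counting used strand is not given in the sources used here, so reads from these partners cannot be told apart. BAG4 shares 4.12% of its exonic bases with LSM1 and BAG5 shares 1.37% with KLC1. ST13 has 17 named pseudogene copies, which held 14.6% to 16.7% of the counts of gene and copies together, so its values are uncertain to that degree.

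**Figure D1:**
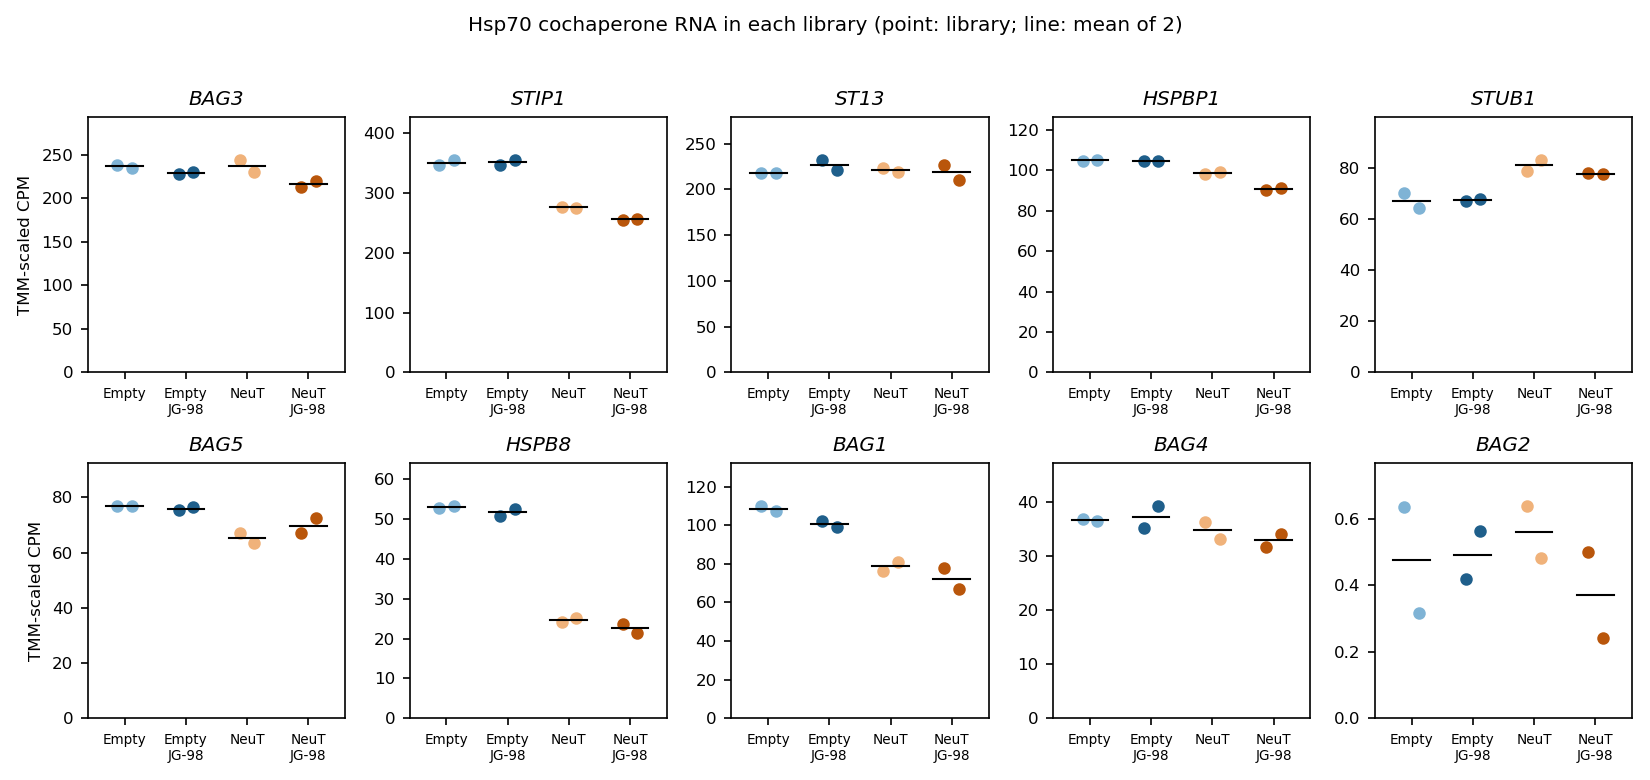
TMM-scaled CPM (y axis, from 0, a scale of its own per gene) of the 10 cochaperone genes in the 4 groups. Each point is 1 library and each line the mean of 2. HSPB8, BAG1, STIP1, BAG5 and HSPBP1 lie lower in all 4 NeuT libraries than in all 4 Empty libraries and STUB1 lies higher. BAG3 stays between 213 and 244 CPM and ST13 between 211 and 232 CPM.

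None of the 10 cochaperone genes was called with JG-98 in either line. BAG3, the partner of Hsp70 that the drug is known to displace, stood at 238 and 235 CPM in untreated Empty and at 228 and 230.0 CPM in treated Empty. In NeuT it stood at 244 and 231 CPM untreated and at 213 and 220 CPM with the drug. In each line both treated libraries lay below both untreated libraries, an order that 43.1% (Empty) and 44.8% (NeuT) of all tested genes also showed in one direction or the other. In bulk samples, fewer cells of a type and less RNA per cell cannot be told apart.

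In Empty, 0 of 10 genes were called with JG-98, where 0.339% of all tested genes were (60 genes). The BAG3 difference was -0.04 on the log2 scale (SE 0.053, adjusted p = 0.851 in edgeR's quasi-likelihood test), and its 95% interval ran from a level 10.3% lower to one 4.73% higher. HSPB8, the small heat shock protein that works with BAG3, stood at 52.9 and 53.4 CPM untreated and at 50.9 and 52.5 CPM treated, a difference in log2 of -0.04 (SE 0.069). BAG1 stood at 110.1 and 107 CPM untreated and at 102 and 99.3 CPM treated, a difference in log2 of -0.11 (SE 0.068, edgeR adjusted p = 0.631). That was the lowest adjusted p of the 9 genes other than the barely read BAG2. The 9 log2 differences ran from -0.11 to 0.06, 5 of them below 0. The intervals of the 9 genes reached at most from 16.2% lower, for BAG1, to 13.8% higher, for BAG4, so larger changes of these RNAs lay outside them. At an unadjusted p under 0.05, edgeR gave 0 of the 10 genes, against 9.83% of all tested genes. At the adjusted threshold limma-voom called 0 of the 10, and DESeq2 called 0 of the 9 other than BAG2, for which it gave no adjusted p in this or the other drug comparisons.

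In NeuT, 0 of 10 genes were called with JG-98, where 3.01% of all tested genes were (533 genes). BAG3 gave a difference in log2 of -0.13 (SE 0.053), which is 8.84% lower with an interval from 15.6% to 1.52% lower. Its unadjusted p was 0.0218 and its adjusted p 0.215 in edgeR's test, so the difference failed the correction. HSPBP1, the exchange factor unrelated to the BAG family, stood at 98.5 and 99.4 CPM untreated and at 90.4 and 91.1 CPM treated, a difference in log2 of -0.12 (SE 0.054, edgeR adjusted p = 0.265). STIP1, the adaptor to Hsp90, stood at 277 and 275 CPM untreated and at 256 and 257 CPM treated, a difference in log2 of -0.11 (SE 0.050, edgeR adjusted p = 0.307). These were the 3 genes with an unadjusted p under 0.05, a level that 16.0% of all tested genes reached. Over the 9 genes other than BAG2, treated and untreated NeuT libraries did not overlap for 6, as for 44.8% of all tested genes.

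Of the 10 genes, 9 had a lower value in treated than in untreated NeuT, where 49.9% of all tested genes did. The exception was BAG5, a BAG family member with several BAG domains that is known to bind parkin, at 67.1 and 63.5 CPM untreated and 67.2 and 72.3 CPM treated. The median log2 difference of the 10 was -0.12, and that of all tested genes 0.00. The intervals of the 9 genes other than BAG2 reached from 17.9% lower, for HSPB8, to 16.9% higher, for BAG5. DESeq2 called 0 of these 9 genes and limma-voom 0 of the 10. BAG1 gave a difference in log2 of -0.13 (edgeR adjusted p = 0.403) from all libraries and of -0.03 (adjusted p = 0.921) without treated NeuT replicate 2. Without treated NeuT replicate 1, BAG1 was called, at -0.24 (edgeR adjusted p = 0.0111), and 2134 genes were called over the table, 11.4% of those tested. Without untreated NeuT replicate 1 or 2 that number was 132 or 143.

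Averaged over both lines, 0 of 10 genes were called, where 3.95% of all tested genes were. BAG1 came to a difference in log2 of -0.12 (SE 0.048, edgeR adjusted p = 0.212) and BAG3 to -0.09 (SE 0.037, edgeR adjusted p = 0.224), the 2 genes with an unadjusted p under 0.05, where 17.0% of tested genes had one. Without treated NeuT replicate 1, BAG1 was called here too, at -0.17 (edgeR adjusted p = 0.00426), and without replicate 2 it was at -0.07 (adjusted p = 0.406). The difference between the drug's effects in NeuT and Empty was tested as an interaction, which called 0 of the 10 genes and 0.00565% of all tested genes (1 gene). For BAG3 that difference was -0.09 on the log2 scale (SE 0.075, edgeR adjusted p = 0.792), with a 95% interval from -0.25 to 0.07. The largest in size among the 9 were those of HSPBP1 at -0.12 and BAG5 at 0.11, with adjusted p-values of 0.730 and 0.769 in edgeR's test. At an unadjusted p under 0.05 the interaction gave 0 of the 10 genes, against 7.79% of all tested genes. At the adjusted threshold limma-voom called 0 of the 10, and DESeq2 0 of the 9 other than BAG2.

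The authors' deposited table of treated against untreated NeuT lists BAG3 at a log2 fold change of -0.13 with an adjusted p of 0.208, the lowest of the 10 there. In the authors' deposited table for Empty, BAG3 is listed at -0.02 with an adjusted p of 0.910, and the lowest adjusted p of the 10 is 0.636, for BAG1.

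**Figure D2:**
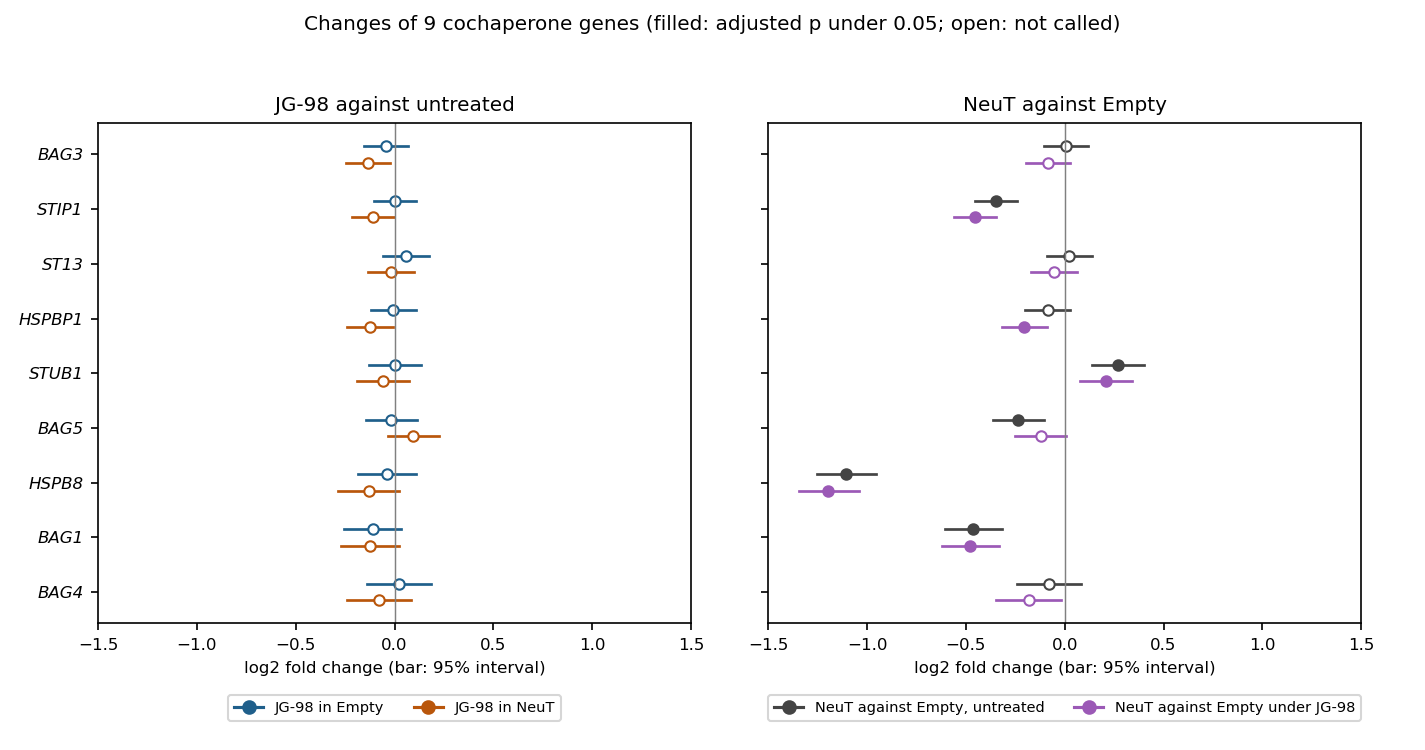
Log2 fold changes (x axis) of 9 cochaperone genes with 95% intervals (bars) from edgeR. Left, JG-98 against untreated in Empty and NeuT, with no gene called; right, NeuT against Empty without and with JG-98, where HSPB8 lies at -1.10 and -1.19 and filled points are called genes.

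The lines differed in HSPB8 by more than in any other of the 10 genes. HSPB8 binds BAG3 and passes misfolded proteins to it for autophagy. It stood at 52.9 and 53.4 CPM in untreated Empty against 24.2 and 25.3 CPM in untreated NeuT. Under JG-98 the values were 50.9 and 52.5 CPM in Empty against 23.7 and 21.5 CPM in NeuT. All 4 NeuT libraries lay below all 4 Empty libraries. HSPB8 was 53.5% lower in untreated NeuT (log2 -1.10, SE 0.071, edgeR adjusted p = 1.66e-09) and 56.3% lower in treated NeuT (log2 -1.19, SE 0.072, edgeR adjusted p = 6.94e-10). The untreated difference was larger in size than that of 88.3% of all tested genes. Of all tested genes, 4.15% were called and at least 2-fold lower in untreated NeuT.

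BAG3 itself did not follow HSPB8. In untreated cells the lines differed in BAG3 by 0.01 on the log2 scale (SE 0.053, edgeR adjusted p = 0.945), with a 95% interval from -0.11 to 0.12. Only 1.02% of tested genes had a smaller difference. Under JG-98 BAG3 was at -0.08 (SE 0.053, edgeR adjusted p = 0.229), which became -0.16 (adjusted p = 0.0206) when libraries were scaled by total counts alone. With total counts the untreated value was -0.06 (adjusted p = 0.350), so its sign in untreated cells and its call under JG-98 changed with the scaling.

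In untreated cells 5 of the 10 genes were called between lines, 1 higher and 4 lower in NeuT, where 42.0% of all tested genes were called, 21.2% higher and 20.8% lower. BAG1, the BAG protein that takes clients to the proteasome, stood at 110.1 and 107 CPM in Empty against 76.4 and 81.1 CPM in NeuT. It was 27.5% lower (log2 -0.46, SE 0.068, edgeR adjusted p = 3.24e-05). STIP1 stood at 347 and 356 CPM in Empty against 277 and 275 CPM in NeuT, and was 21.3% lower (log2 -0.35, SE 0.050, edgeR adjusted p = 2.64e-05). BAG5 stood at 76.7 and 77.0 CPM against 67.1 and 63.5 CPM, and was 15.0% lower (log2 -0.23, SE 0.061, edgeR adjusted p = 0.0051). The BAG5 call was lost without untreated NeuT replicate 2 (adjusted p = 0.119).

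STUB1, the ubiquitin ligase, was the gene called in the other direction. It stood at 70.2 and 64.2 CPM in untreated Empty against 78.8 and 83.2 CPM in untreated NeuT, and was 20.6% higher in NeuT (log2 0.27, SE 0.062, edgeR adjusted p = 0.00205). Its call was lost without untreated Empty replicate 2 (adjusted p = 0.0669). JMJD8, which overlaps it on the other strand, had a difference in log2 of 0.12 (SE 0.070, edgeR adjusted p = 0.189), and the part of its reads in the STUB1 value was not tested. The genes not called were BAG3, ST13 at 0.02, HSPBP1 at -0.09, BAG4 at -0.08 and BAG2 at 0.24. HSPBP1 was called with total counts, at -0.16 (adjusted p = 0.0279), and ST13 then had a value of -0.05.

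Under JG-98 again 5 of the 10 genes were called, 1 higher and 4 lower in NeuT, where 41.7% of all tested genes were called, 21.7% higher and 20.0% lower. BAG1 stood at 102 and 99.3 CPM in treated Empty against 77.6 and 66.8 CPM in treated NeuT, and was 28.2% lower (log2 -0.48, SE 0.069, edgeR adjusted p = 2.51e-05). STIP1 stood at 347 and 356 CPM against 256 and 257 CPM, and was 27.1% lower (log2 -0.46, SE 0.050, edgeR adjusted p = 1.25e-06). HSPBP1 stood at 104.6 in both treated Empty libraries against 90.4 and 91.1 CPM, and was 13.2% lower (log2 -0.20, SE 0.054, edgeR adjusted p = 0.00557). STUB1 stood at 66.9 and 67.7 CPM against 77.8 and 77.8 CPM, and was 15.6% higher (log2 0.21, SE 0.063, edgeR adjusted p = 0.0125). That STUB1 call was lost with total counts (adjusted p = 0.0957) and without treated Empty replicate 1 (adjusted p = 0.0630). JMJD8 was at 0.18 (SE 0.072, edgeR adjusted p = 0.0512).

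BAG5 and BAG4 were the genes nearest to a call under JG-98. BAG5 stood at 75.5 and 76.3 CPM in Empty against 67.2 and 72.3 CPM in NeuT, a difference in log2 of -0.12 (SE 0.061, edgeR adjusted p = 0.126). BAG4, known as a silencer of death receptors, stood at 35.1 and 39.3 CPM against 31.6 and 34.1 CPM, a difference in log2 of -0.18 (SE 0.078, edgeR adjusted p = 0.0733). Without treated NeuT replicate 2 both were called, BAG5 at -0.17 (adjusted p = 0.0357) and BAG4 at -0.24 (adjusted p = 0.0317). Without treated NeuT replicate 1 neither was, with BAG5 at -0.06 (adjusted p = 0.486) and BAG4 at -0.12 (adjusted p = 0.280). With total counts both were called as well, at -0.20 and -0.26, and without treated Empty replicate 1 BAG4 was (adjusted p = 0.0380). ST13 lay at 211 to 232 CPM over the 8 libraries, with a difference in log2 of -0.05 (SE 0.055) under JG-98. BAG2 lay at 0.24 to 0.64 CPM and differed by no more than its wide spread.

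Over both treatments, the 4 NeuT libraries did not overlap with the 4 Empty libraries for 6 of the 10 genes (BAG1, BAG5, HSPBP1, STUB1, STIP1 and HSPB8), as for 45.9% of all tested genes. For 5 of these, all but STUB1, NeuT was the lower line, as for 22.5% of all tested genes. Among the members, BAG1, STIP1, STUB1 and HSPB8 were called in the same direction without and with the drug, as were 32.5% of all tested genes. The untreated and treated comparisons rest on different libraries. The share of calls that were higher in NeuT was 50.5% untreated and 52.0% treated, and became 40.7% and 41.0% with total counts, which moved the median of all genes to -0.08 in both. The fibroblast list also differed between lines: its 7 markers summed to 8.52 to 9.81 CPM in Empty and 68.4 to 83.0 CPM in NeuT, with 5 of them (COL3A1, PDGFRA, PDGFRB, COL1A2 and LUM) under 1 CPM in every library and none at 0. Leukocyte markers, 5 in all, summed to 5.27 to 7.29 CPM in Empty and 10.9 to 12.4 CPM in NeuT, and the 4 of endothelium to 12.3 to 17.5 CPM in Empty and 9.29 to 11.1 CPM in NeuT. Basal markers summed to 28800 to 30100 CPM in Empty and 40000 to 42000 CPM in NeuT. The part of these differences in the cochaperone values was not tested.

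**Figure D3:**
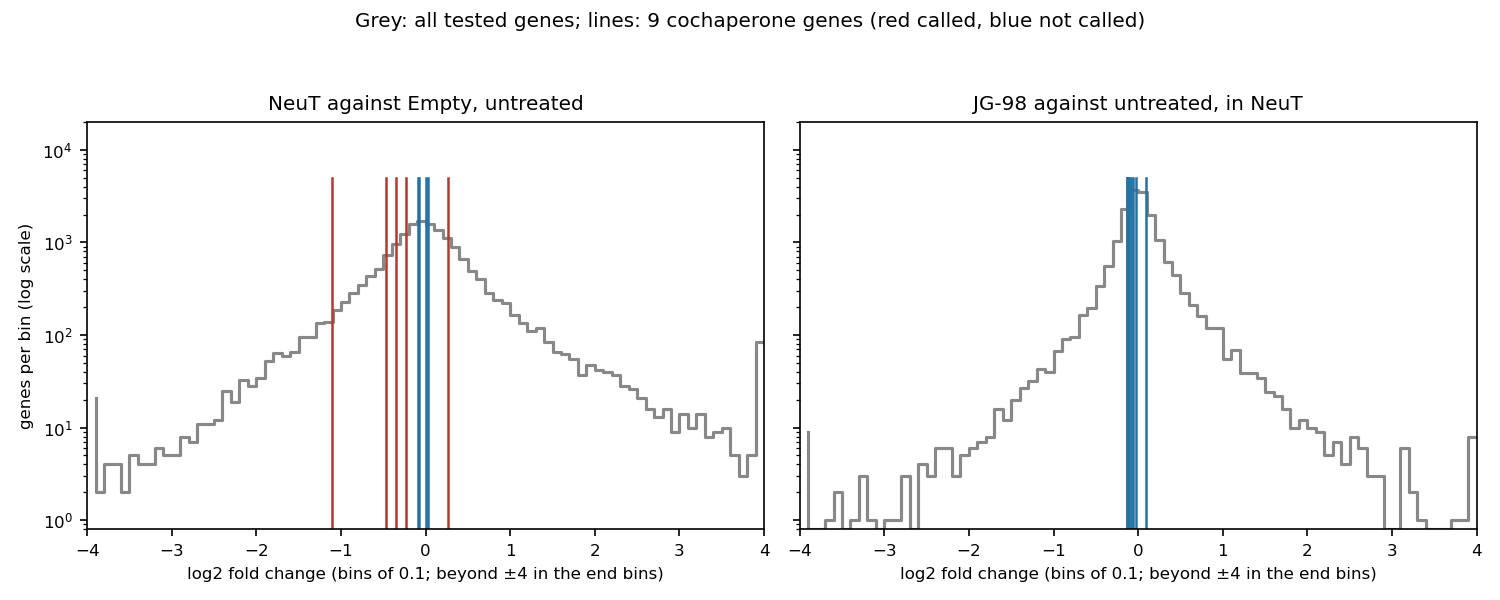
Number of tested genes (y axis, log scale) by log2 fold change (x axis, bins of 0.1, values beyond 4 in the end bins), with 9 cochaperone genes as vertical lines, red where called. Left, NeuT against Empty untreated, where HSPB8 lies at -1.10; right, JG-98 in NeuT, where all 9 lie between -0.13 and 0.10.

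Ratios of 2 genes within a library do not depend on how libraries are scaled. BAG3 and BAG1 compete for the same face of Hsp70, and the ratio of their counts was 2.16 and 2.19 in untreated Empty and 2.24 and 2.32 in treated Empty. In NeuT it was 3.19 and 2.84 untreated and 2.74 and 3.29 treated, so every NeuT library lay above every Empty library. The log2 ratio varied by an SD of 0.044 among the 4 Empty libraries and 0.13 among the 4 NeuT libraries, and the means differed by 0.43, which is 1.35-fold. The two-sided exact permutation test of 4 against 4 libraries gave p = 0.0286, the smallest that its 70 arrangements allow. BAG1 alone already separated the 4 NeuT from the 4 Empty libraries, as 45.9% of all tested genes did in one direction or the other. BAG3 differed little, so the ratio restates the BAG1 difference and is not separate support for it.

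The ratio of HSPB8 to BAG3 counts was 0.222 and 0.227 in untreated Empty, 0.223 and 0.228 in treated Empty, 0.099 and 0.11 in untreated NeuT, and 0.111 and 0.0976 in treated NeuT. The libraries of a line lay close together whatever the treatment. The difference between lines was -1.11 on the log2 scale, 0.463-fold, with the same exact permutation p = 0.0286. HSPB8 alone separated the lines in the same way, so this ratio restates the HSPB8 difference. These 2 ratios were the only ones tested, and adjustment over them leaves 0.0286 for each. Libraries of both treatments were pooled within a line, and within 1 treatment 2 against 2 libraries cannot go below 0.333. The ratio of STUB1 to STIP1, chosen after its values were seen and so not tested, was 0.181 to 0.203 in Empty and 0.284 to 0.304 in NeuT.

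Among the RNAs of the 6 exchange factors, on the scale of CPM per kb, BAG3 made up 49.6% to 50.1% of the sum in Empty and 51.8% to 53.7% in NeuT. HSPBP1 came next with 27.5% to 28.8% over all libraries. BAG1 held 8.32% to 9.0% in Empty and 6.20% to 7.34% in NeuT. BAG5 held 7.52% to 9.01%, BAG4 4.29% to 4.84%, and BAG2 at most 0.0581%. These are shares of RNA, depend on the exon length used for each gene, and say nothing of the amounts of protein.

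**Figure D4:**
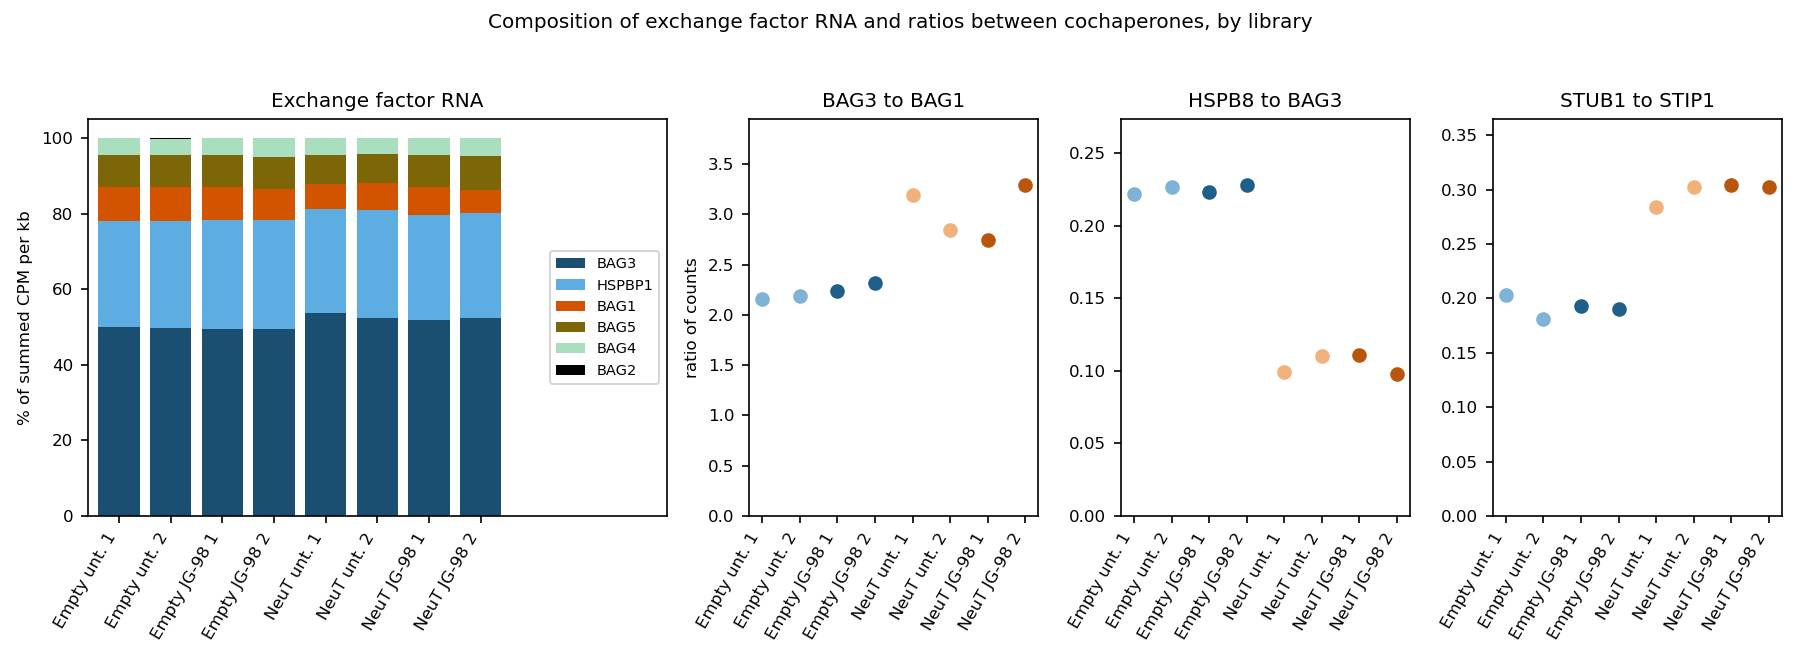
Left, share of each exchange factor in the summed CPM per kb of the 6 (stacked bars, % per library); right, ratios of counts in each library (points). BAG3 holds 49.6% to 53.7% in every library, and in the 3 ratios the 4 NeuT libraries lie apart from the 4 Empty libraries.

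Other genes of the same network were counted in lists that leave out the 10 cochaperones. The lists share genes: HSPH1, CHORDC1 and CRYAB, among others, are counted among the HSF1-induced genes and in another list as well. Counts of different lists are therefore not independent. With JG-98 in Empty, 0 genes were called in any of the 6 lists. With JG-98 in NeuT, 4 of 25 partners of BAG3 in autophagy and signalling rose and 0 fell, where 3.01% of all tested genes were called in either direction, the share against which the other lists with JG-98 in NeuT stand too. The largest was MAP1LC3B, the LC3 protein of the autophagosome membrane, at 180.0 ± 4.3 CPM untreated and 268 ± 22 CPM treated (SD, n = 2; log2 0.57, SE 0.066, edgeR adjusted p = 0.000101). It has a near-identical copy with which reads could be shared. Without treated NeuT replicate 1, 8 of the 25 rose and 1 fell, and without replicate 2 the numbers were 2 and 0. In those fits 11.4% (without replicate 1) and 1.96% (without replicate 2) of all tested genes were called, the shares for the other lists with JG-98 in NeuT as well. The median log2 change of the 25 was 0.09 in NeuT.

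The chaperones themselves showed 1 call of 10 tested with JG-98 in NeuT: HSPA13, a microsomal Hsp70 relative, rose from 29.4 ± 3.2 to 48.5 ± 7.4 CPM (SD, n = 2; log2 0.72, SE 0.11, edgeR adjusted p = 0.0018). Without treated NeuT replicate 1, 2 chaperones fell as well. Of 24 other exchange factors and adaptors with TPR repeats, 2 rose and 0 fell, with SGTB, an adaptor for tail-anchored proteins, the largest at a log2 change of 0.45 (SE 0.094, edgeR adjusted p = 0.0132). Neither was called without treated NeuT replicate 2, and without replicate 1, 2 rose and 1 fell. None of 5 tested small heat shock proteins and none of 12 CHIP enzymes and partners was called, and without treated NeuT replicate 1 there were 2 of the 12. Of 26 tested genes that HSF1 is known to induce, 1 rose and 0 fell. That call stayed with total counts and was lost with another scaling of libraries. The median change of the 26 was -0.02, against 0.00 for all tested genes.

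Between untreated lines, 22 of the 26 HSF1-induced genes were called, 8 higher and 14 lower in NeuT, where 42.0% of all tested genes were called, 21.2% higher and 20.8% lower. The same shares stand beside the other lists between untreated lines. The 26 genes had a median log2 difference of -0.26 against -0.02 for all tested genes. The largest difference downward was that of CRYAB, a small heat shock protein, at 25.7 ± 0.56 CPM in Empty and 13.2 ± 2.2 CPM in NeuT (SD, n = 2; log2 -0.96, SE 0.10, edgeR adjusted p = 9.3e-07). RGS2, a regulator of G protein signalling, had the largest difference upward, at 7.0 ± 0.088 CPM in Empty and 30.6 ± 2.8 CPM in NeuT (SD, n = 2; log2 2.13, SE 0.13, edgeR adjusted p = 3.24e-09). With total counts the split was 6 higher and 16 lower, where 17.5% of all tested genes were called higher and 25.5% lower. Of the 10 Hsp70 and Hsp110 chaperones tested, 1 was higher and 4 were lower, and with total counts 1 and 5. HSPH1, an Hsp110 that also acts as an exchange factor, had the largest difference downward, with 294 ± 12 CPM in Empty and 181 ± 6.3 CPM in NeuT (SD, n = 2; log2 -0.70, SE 0.056, edgeR adjusted p = 2.78e-08). HSPA6, an inducible Hsp70, was the one that was higher, at 0.492 ± 0.15 and 2.01 ± 0.26 CPM (SD, n = 2), few counts that a near-identical copy could share.

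Of the other 24 exchange factors and adaptors, 2 were higher and 9 lower in untreated NeuT, and with total counts 2 and 11. FKBP8, a mitochondrial adaptor, was the highest at 0.58 (SE 0.051) and CHORDC1, a partner of Hsp90, the lowest at -0.69 (SE 0.065). Among 12 CHIP enzymes and partners 2 were higher and 2 lower, UBE2W at 0.44 (SE 0.068) and UBE4B at -0.38 (SE 0.062) the extremes. With total counts 1 was higher and 3 were lower. Of 25 BAG3 partners 7 were higher and 3 lower, and with total counts 4 were higher and 5 lower. SQSTM1, the autophagy receptor p62, was the highest at 283 ± 6.6 CPM in Empty and 406 ± 3.4 CPM in NeuT (SD, n = 2; log2 0.52, SE 0.064, edgeR adjusted p = 4.65e-06). HDAC6, the deacetylase that carries aggregates along microtubules, was the lowest at -0.55 (SE 0.079, edgeR adjusted p = 2.21e-05). Of 5 small heat shock proteins tested, 2 were lower and 0 higher.

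Under JG-98 the lines differed in 22 of the 26 HSF1-induced genes, 7 higher and 15 lower in NeuT, where 41.7% of all tested genes were called, 21.7% higher and 20.0% lower. With total counts 6 of the 26 were higher and 16 lower, and without treated NeuT replicate 2 the numbers were 6 and 14. Of the 10 chaperones 2 were higher and 4 lower, which became 2 and 7 with total counts and 2 and 3 without treated NeuT replicate 2. Of the 24 exchange factors and adaptors 3 were higher and 9 lower, which became 3 and 11 with total counts and 5 and 10 without treated NeuT replicate 1. Of the 25 BAG3 partners 8 were higher and 3 lower, which became 6 and 5 with total counts. Over all tested genes 42.8% were called with total counts, 17.6% higher and 25.2% lower, 39.7% without treated NeuT replicate 1 and 35.8% without replicate 2. SQSTM1 was again the highest of these partners, with 286 ± 14 CPM in treated Empty and 486 ± 49 CPM in treated NeuT (SD, n = 2; log2 0.76, SE 0.064, edgeR adjusted p = 4.81e-08). Among the 12 CHIP enzymes and partners 5 were higher and 3 lower, which became 2 and 4 with total counts and 3 and 2 without treated NeuT replicate 2. CRYAB, with 30.3 ± 0.78 CPM in treated Empty and 12.3 ± 1.1 CPM in treated NeuT (SD, n = 2), was again the lowest of the small heat shock proteins at -1.30 on the log2 scale (SE 0.10, edgeR adjusted p = 2.64e-08).

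The 3 genes whose log2 CPM followed BAG3 most closely over the 8 libraries, among 13115 tested genes with a symbol and a mean of at least 50 counts, were JMJD6 (Pearson r = 0.9755), SQLE (0.9527) and NFIX (0.9446). JMJD6 averaged 27.4 and 26.9 CPM in untreated and treated Empty and 27.6 and 24.9 CPM in NeuT. For HSPB8 they were ATP6V0E2 (0.9995), DLGAP5 (0.9994) and MYBL2 (0.9993). The 8 points of HSPB8 fall into 2 clusters, the lines, so these values mainly describe a difference between lines. All such values describe 8 libraries that share lines, treatments and depth.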

How the data were processed

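Polyadenylated RNA was sequenced in 8 libraries, 2 for each of 4 groups. The authors deposited raw counts per gene for all libraries and, per the file headers, their own tables per line that give each gene's log2 fold change, average log2 level, test scores, p-value and its adjusted form. The submitters' processing notes name Trim Galore 0.5.0, FastQC 0.11.7, HISAT2 2.1.0, SAMtools 1.9, featureCounts 1.6.3, limma and the build GRCh38 (hg38). Strand setting, annotation release and treatment of multi-mapping reads are not given in the sources used here. Columns were matched to samples by name, and samples to groups by title. Gene symbols were found for 60261 identifiers.

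The deposited counts were tested with edgeR 4.0.16 in R 4.3.3 (filterByExpr with a minimum count of 10 and total of 15, TMM, robust quasi-likelihood fit, 1 model with a coefficient per group over all 8 libraries, Benjamini-Hochberg). DESeq2 1.42.0 and limma 3.58.1 (voom) served as alternatives, beside other scalings and filters, fits restricted to the 4 libraries of a comparison, a replicate block and leaving out each library. Exon overlaps come from the exon coordinates of the count table. GENCODE 29 was used only to compare gene positions, and 8 of the 10 genes have the same start and end there. Replicate differences of the groups correlated at -0.101 to 0.244, so replicate numbers were not taken as pairs. Scripts were tested on simulated data.

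The members, gene lists and tests were chosen with earlier results of these data known. Genes outside the 10 are named where they have the largest or smallest change among the called genes of a list, are among the 3 most like BAG3 or HSPB8, or overlap a member's exons. One gene that this rule names is not reported here.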

Additional observations from a re-analysis of the deposited data

How the results depend on the processing

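With 2 libraries per group, calls rest on a spread shared across genes. Over all settings of the 10 genes 800 kept their direction and call, 4 lost and 9 gained a call and 29 changed sign, none of the last called. HSPB8, BAG1 and STIP1 stayed called between lines in every alternative, without and with the drug. The number of genes called with JG-98 in Empty (60) was 282 without a filter, 136 with DESeq2, 205 from only the 4 libraries compared, and 9 to 37 without any 1 of its libraries. In NeuT (533) it was 1000, 185 from the 4 libraries and 132 to 2134. Averaged over the lines (698) it was 1142 without a filter and 259 to 1934 without 1 library (259 to 317 for the untreated libraries and treated Empty replicate 1, 1934 for treated NeuT replicate 1), and for the interaction (1) it was 138 without a filter, 2 with total counts, 26 with DESeq2, 3 without robust estimation and 1 to 777 without 1 library. The interaction count without treated NeuT replicate 1 was 777, without replicate 2 of that group 15, without untreated NeuT replicates 1 and 2 in turn 3 and 6, and without treated Empty replicate 1 it was 2. Members called without 1 library numbered 0 to 1 with JG-98 in NeuT and averaged. The causes were not tested.

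With the replicate block, 66 and 593 genes were called with JG-98 in Empty and NeuT and 0 members, and the block changed no call of a member. Crossing the numbers of untreated NeuT, added because its differences correlated at -0.101 with those of treated NeuT, gave 796 genes and 0 members. The BAG3 to BAG1 ratio differed by 0.434 in the replicate block (exact sign test p = 0.125), by 0.469 in untreated and 0.398 in treated libraries (exact p = 0.333 for both), and by 0.390 to 0.478 without 1 library. The HSPB8 to BAG3 ratio gave -1.11 in these 3 fits (exact p = 0.125, 0.333 and 0.333) and -1.14 to -1.08 without 1 library.

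Signs changed, with no gene called. Without a filter, STUB1 was at -0.00426 and STIP1 at -0.00446 with JG-98 in Empty. Between untreated lines BAG3 was at -0.0634 and ST13 at -0.0454 with total counts, and ST13 at -0.00067 with its pseudogene copies added, an alternative chosen after seeing the data. Without 1 library, values with JG-98 in Empty ran from -0.348 to 0.654 for BAG2, -0.0653 to 0.0985 for BAG4, -0.0623 to 0.0687 for STUB1 and -0.0173 to 0.0197 for STIP1, and in NeuT from -0.0747 to 0.0226 for ST13. Averaged over the lines they ran from -0.571 to 0.0282 for BAG2, -0.0720 to 0.00972 for BAG4, -0.0605 to 0.00503 for STUB1 and -0.00572 to 0.0427 for ST13. The interaction ran from -0.133 to 0.0773 for BAG1 and -0.127 to 0.00361 for STUB1. Between untreated lines values ran from -0.177 to 0.828 for BAG2, -0.0236 to 0.0633 for BAG3 and -0.135 to 0.00265 for BAG4, and under JG-98 from -1.04 to 0.00536 for BAG2.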
